A study of Homo sapiens with 6 samples.

Results

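A set of 41 genes linked to the transcription factor ATF4 and to the supply of serine and other amino acids was followed in OVCAR8, a high-grade serous ovarian cancer cell line. The set was chosen by name, with earlier results of these data known, so its shares of called genes may partly reflect the choice. A member entered the tests if its value was 10 or more in at least 2 of the 6 samples. Of the 41 genes, 39 had a row in the table of 14930 genes and 37 passed, among 9671 genes tested in all. Aminoacyl-tRNA synthetases, which ATF4 also drives, were left out of the set on purpose. RNA-Seq was performed in 3 groups of 2 replicates after 72 hours. The groups were control, 5 μM DZNep, and shEZH2, in which 1 μg/mL doxycycline switched on a hairpin against EZH2. DZNep is an inhibitor of S-adenosylhomocysteine hydrolase that also lowers EZH2 protein, and EZH2 is the methyltransferase subunit of polycomb repressive complex 2. The labels call the untreated group control and list DMSO among the treatments, but do not say whether those cells carried the hairpin. The silencing rests on 1 inducible hairpin line, and no doxycycline-treated group without silencing was analysed here, so doxycycline, the hairpin and the loss of EZH2 cannot be told apart in that group. Nothing in the labels says that replicates came from separate cultures, so the p-values measure the spread between these samples, which may be technical.

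ATF4 is the effector of the integrated stress response. Phosphorylation of the initiation factor eIF2 lowers general protein synthesis but favours translation of the ATF4 mRNA, so the level of that mRNA is not a measure of ATF4 protein, which was not measured here. ATF4 dimerizes with C/EBP factors and activates genes for amino acid uptake, for the synthesis of serine and asparagine, for the folate cycle in mitochondria, and for feedback on the stress itself. In cancer cells this programme feeds serine into nucleotide and glutathione synthesis.

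ATF4 and its C/EBP partners bind the C/EBP-ATF response element, and the sequence TGATGNAA, or TTNCATCA on the opposite strand, was searched in the RefSeq promoter windows of GRCh38.p14, from 250 bases before to 50 bases after each annotated start. Of the 37 tested members, 31 had a window. No window was listed for EIF4EBP1, PSPH, SHMT2, ALDH1L2, PYCR1 and GPT2. The element was present in 11 of the 31 (35.5%), against 180 of 7386 tested genes with a window (2.44%) and 4.46% of all 27305 genes in the promoter table. Counted by window, since a gene can have several, the shares were 13 of 51 for members (25.5%) and 1.82% for all tested genes. The members were picked as genes known to respond to ATF4, so this share describes the choice of genes. The element follows for the 4 members that carried it and changed with DZNep, and for CHAC1, HERPUD1 and CEBPG, which carried it and were not called; capitals mark the element, and each line reads 5′ to 3′ along the gene.
ASNS: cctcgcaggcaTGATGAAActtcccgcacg
SLC1A4: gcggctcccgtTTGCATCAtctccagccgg
JDP2: atagccggggcTGATGCAAcccgtcccgcc
SLC3A2: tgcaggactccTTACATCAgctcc
CHAC1: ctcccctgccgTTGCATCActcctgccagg
HERPUD1: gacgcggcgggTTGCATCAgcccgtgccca
CEBPG: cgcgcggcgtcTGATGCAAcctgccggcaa
These lie at chr7:97872458-97872487 (ASNS, minus strand), chr2:64989381-64989410 (SLC1A4), chr14:75427995-75428024 (JDP2), chr11:62881725-62881748 (SLC3A2), chr15:40953251-40953280 (CHAC1), chr16:56931955-56931984 (HERPUD1) and chr19:33374060-33374089 (CEBPG), the last 6 on the plus strand. Relative to the annotated start, the element began at -68 in ASNS, -7 in SLC1A4, -16 in JDP2 and 37 in SLC3A2, the last within the transcribed part. SLC1A5, SLC7A1, SLC38A1 and MTHFD1L also carried it and were not called with DZNep. Among members with a window, it was present in 3 of 11 lower with DZNep (27.3%), 1 of 6 higher (16.7%) and 7 of 14 not called (50%). A match says only that these letters are present, and binding of ATF4 was not measured.

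The deposited values are whole numbers that add up to between 999956 and 1000068 in every sample. The authors had therefore scaled them to a common total, so sequencing depth is unknown and no interval from depth can be given. Group means were compared with limma on log2(value + 1) after TMM scaling, with all 6 samples in 1 fit, and genes were called at a Benjamini-Hochberg adjusted p under 0.05 over the 9671 genes. EZH2, the targeted gene, stood at 36 and 42 in control, at 26 and 26 with DZNep and at 18 and 18 with shEZH2, so both treated groups lay below control. DZNep gave a log2 fold change of -0.63 (standard error 0.18, adjusted p = 0.026, limma) and shEZH2 one of -1.12 (standard error 0.18, adjusted p = 0.016, limma). With either shEZH2 sample left out, EZH2 missed the threshold in both contrasts, with adjusted p up to 0.21 for shEZH2 and 0.092 for DZNep, and with control replicate 2 or DZNep replicate 2 left out it did so for DZNep. The shEZH2 samples were closer to each other than other replicates were. The standard deviation of the replicate difference across tested genes was 0.14 on the log2 scale, against 0.43 in control and 0.45 in DZNep cells. The fit pools the variance of each gene over all groups, so the close shEZH2 pair can narrow the standard errors of DZNep against control. The 5 epithelial markers with a row summed to 2407 to 3018 in control, 7357 to 8535 in DZNep and 3439 to 3445 in shEZH2 cells. KRT8 and KRT18 carried the higher sum with DZNep, KRT7 did not (597 and 499 in control, 585 and 503 with DZNep, 355 and 350 with shEZH2), and EPCAM (5 to 12) and CDH1 (0 to 8) were low. The 3 ovarian serous markers with a row summed to 170 to 195 in control, 51 to 57 with DZNep and 108 to 119 with shEZH2, mostly from MSLN (176 and 150, 45 and 36, and 102 and 95), while PAX8 was at 10 to 19 and WT1 at 1 to 2. KRT19 and MUC16 had no row in the table. The markers of other cell types summed to 13 to 18 in every sample over the 3 of 9 with a row, of which COL1A1 made up 9 to 16. The part of these marker differences in the results was not tested.

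With DZNep, members changed in both directions, as all tested genes did. The share of members that fell was above that of all tested genes, and the share that rose was below it. ATF4 itself, the amino acid transporter subunits SLC3A2 and SLC7A5, the eIF2 phosphatase subunit PPP1R15A, the secreted glycoprotein STC2 and CEBPB rose. In contrast, 2 of the 3 serine synthesis enzymes (PHGDH and PSAT1), 3 of the 6 folate cycle enzymes (ALDH1L2, MTHFD2 and MTHFD1) and asparagine synthetase (ASNS) fell, along with PCK2, CBS, the transporter SLC1A4, the tRNA exporter XPOT, EIF4EBP1, DDIT3 and JDP2. In total, 13 of the 37 members were lower (35.1%), where 20.4% of all tested genes were lower, and 6 were higher (16.2%), where 22.4% of all tested genes were higher. At over 2-fold, 8 members were lower and 3 higher, against 11.7% and 10.5% of all tested genes. The median log2 fold change was -0.17 over the members and 0.02 over all tested genes. The remaining 18 members were not called. By a log2 fold change above 1 with unadjusted P under 0.05, the thresholds of the methods, 8 members were lower and 3 higher, where 11.8% and 10.5% of all tested genes were. Both DZNep samples lay below both control samples for 16 members and above them for 9, where 30.8% and 34.8% of all tested genes did so. For all 19 called members, the DZNep value moved in the called direction within replicate 1 and within replicate 2. The calls rest on the mean of these same differences, so this agreement was largely fixed by the selection. The calls were repeated in 18 alternative fits. Those of CEBPB, DDIT3, EIF4EBP1, PSAT1 and MTHFD1 were lost with at least 1 sample left out. With only the control and DZNep samples in the fit, 11 members were lower and 5 higher, where 15.6% and 15.8% of all tested genes were. PSAT1 and MTHFD1 were then not called, at adjusted p = 0.078 and 0.14 (limma).

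**Figure D1:**
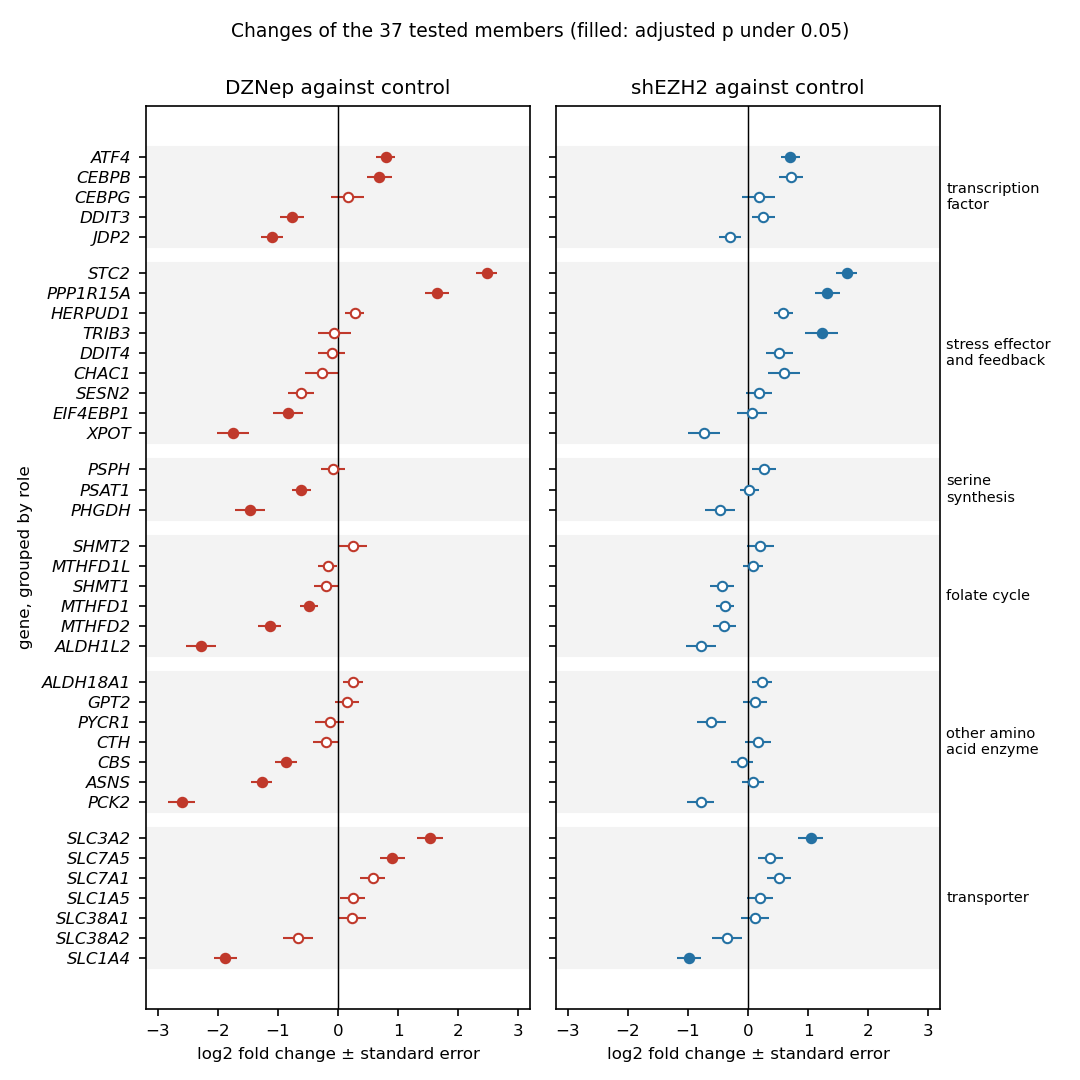
Log2 fold change (x axis, on log2(value + 1) after TMM scaling) of the 37 tested members by role, with DZNep (left) and with shEZH2 (right) against the same 2 control samples; bars are standard errors from limma with n = 2 per group, and filled points passed an adjusted p of 0.05. DZNep has filled points on either side of 0, from -2.60 for PCK2 to 2.47 for STC2, whereas shEZH2 has 6 filled points, 5 of them above 0.

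Among the transcription factors, ATF4 (chromosome 22, 39520559 to 39522686 in GRCh38) stood at 254 and 248 in control, at 430 and 489 with DZNep and at 412 and 433 with shEZH2. Every treated sample lay above both control samples, and the DZNep and shEZH2 samples overlapped after scaling. It rose by 0.80 on the log2 scale with DZNep (standard error 0.16, adjusted p = 0.0053, limma) and by 0.70 with shEZH2 (standard error 0.16, adjusted p = 0.036, limma), and the direct difference was -0.10 (standard error 0.16, adjusted p = 0.75, limma). After a correction for transcript length and GC content the DZNep change of ATF4 was 0.41 (adjusted p = 0.031, limma). The shEZH2 call of ATF4 passed in 13 of the 18 alternative fits. CEBPB, a C/EBP factor that pairs with ATF4, changed by 0.69 with DZNep (adjusted p = 0.029, limma), and its log2 fold change with shEZH2 was 0.71 (adjusted p = 0.068, limma). After the same correction the DZNep change of CEBPB was 0.42 (adjusted p = 0.026, limma), and without DZNep replicate 1 it was 0.43 (adjusted p = 0.13, limma). CEBPG, the C/EBP partner needed for many ATF4 targets, had log2 fold changes of 0.16 and 0.17 with a standard error of 0.27, neither past the threshold. ATF4 and SLC7A5 have pseudogene copies in the genome, so the division of reads between gene and copies is uncertain for both.

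DDIT3 (CHOP), a pro-apoptotic factor downstream of ATF4 on chromosome 12 (57516588 to 57520517), went the other way from ATF4 with DZNep. Its values were 30 and 37 in control, 17 and 24 with DZNep, and 38 and 45 with shEZH2 cells. The DZNep samples lay below all others, with a log2 fold change of -0.76 (standard error 0.20, adjusted p = 0.016, limma). With shEZH2 it was 0.26 (adjusted p = 0.43, limma), and the direct difference between shEZH2 and DZNep was 1.02 (standard error 0.20, adjusted p = 0.022, limma). JDP2, an AP-1 repressor on chromosome 14 (75426943 to 75474107) whose promoter carried the element shown above, had 30 and 29 in control, 13 and 15 with DZNep, and 25 and 24 with shEZH2. It fell by 1.10 on the log2 scale with DZNep (standard error 0.18, adjusted p = 0.0025, limma), while its change with shEZH2 was -0.31 (adjusted p = 0.31, limma). ATF5, itself a target of the stress response, stayed under the filter with 3 and 3 in control, 5 and 6 with DZNep, and 6 and 7 with shEZH2, and NUPR1 had no row in the table.

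**Figure D2:**
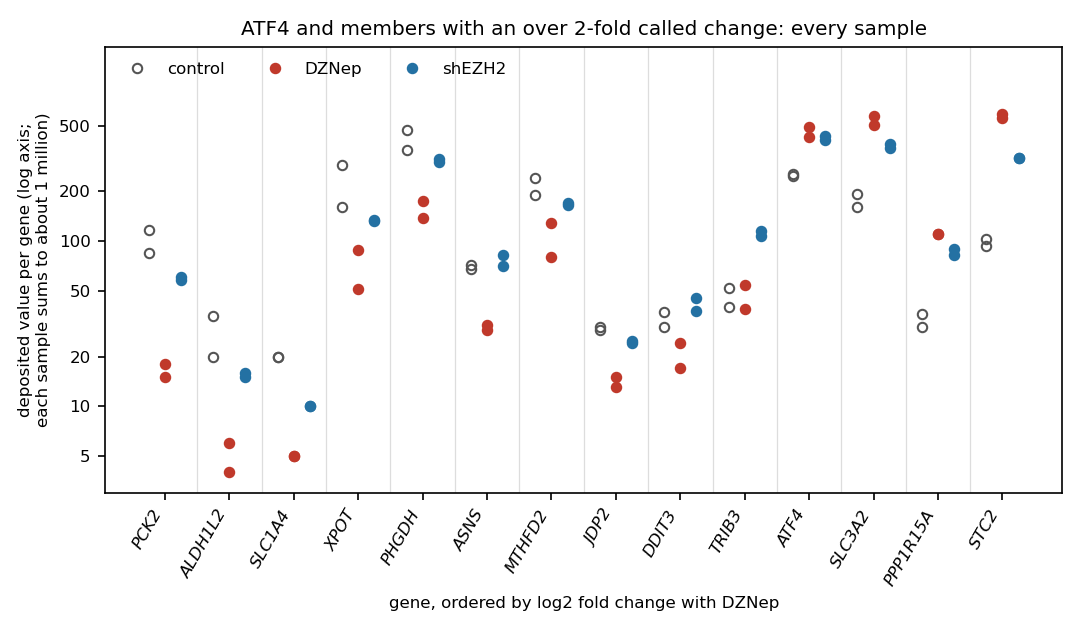
Deposited value (y axis, log scale, with the same total in each sample) of ATF4 and of the 13 members with a called change of over 2-fold in any contrast, with 1 point per sample and 2 samples per group; levels can be compared within a gene and not between genes. From PCK2 to DDIT3 the DZNep points lie lowest, TRIB3 is high with shEZH2 alone, and for ATF4, SLC3A2, PPP1R15A and STC2 both treated groups lie above control.

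Of the 9 tested stress effectors and feedback genes, STC2 and PPP1R15A rose with both treatments. STC2, stanniocalcin 2, a secreted glycoprotein induced by ER stress (chromosome 5, 173314723 to 173328414), read 103 and 93 in control, 561 and 590 with DZNep, and 317 and 319 with shEZH2. The 3 groups did not overlap. It was 5.55-fold higher with DZNep (log2 fold change 2.47, standard error 0.17, adjusted p = 7.2e-05, limma) and 3.12-fold higher with shEZH2 (log2 fold change 1.64, standard error 0.17, adjusted p = 0.0048, limma). It was the only member lower with shEZH2 than with DZNep in the direct comparison (log2 difference -0.83, adjusted p = 0.026, limma). PPP1R15A (GADD34), which directs the dephosphorylation of eIF2 and so ends the stress response, lies on chromosome 19 (48872421 to 48876058) and had 36 and 30 in control, 111 and 110 with DZNep, and 83 and 90 with shEZH2. It was 3.13-fold higher with DZNep (adjusted p = 0.00071, limma) and 2.50-fold higher with shEZH2 (adjusted p = 0.014, limma).

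TRIB3, a pseudokinase that ATF4 and DDIT3 induce and that restrains ATF4 (chromosome 20, 380760 to 397559), rose with silencing of EZH2. Its values were 52 and 40 in control, 54 and 39 with DZNep, and 107 and 116 with shEZH2, so that control and DZNep samples overlapped and the shEZH2 samples lay above both. It rose by 1.22 on the log2 scale with shEZH2 (standard error 0.27, adjusted p = 0.036, limma). That call passed in 13 of the 18 alternative fits. TRIB3 did not pass with DZNep, at -0.06 (adjusted p = 0.87, limma). The direct difference was 1.28 (standard error 0.27, adjusted p = 0.03, limma) and passed in 14 of the 18. XPOT, which exports tRNA from the nucleus (chromosome 12, 64404392 to 64451125), had 162 and 290 in control, 51 and 89 with DZNep, and 133 and 135 with shEZH2. It was 3.35-fold lower with DZNep (log2 fold change -1.74, standard error 0.26, adjusted p = 0.0017, limma), although its control samples differed widely, and its log2 fold change with shEZH2 was -0.74 (adjusted p = 0.12, limma). EIF4EBP1, a translation repressor, fell by 0.83 on the log2 scale with DZNep (standard error 0.25, adjusted p = 0.03, limma), and without control replicate 1 its log2 fold change was -0.53 (adjusted p = 0.11, limma).

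The other stress effectors did not pass the test in any contrast. With DZNep their log2 fold changes were -0.61 for SESN2, a leucine sensor that inhibits mTORC1 (adjusted p = 0.051, limma), -0.27 for CHAC1, which degrades glutathione, -0.10 for DDIT4, an inhibitor of mTORC1, and 0.28 for HERPUD1, a component of ER-associated degradation. With shEZH2 they were 0.18, 0.60, 0.52 and 0.59 in the same order. Both shEZH2 samples lay above both control samples for all 4, as they did for 33.5% of all tested genes. VLDLR, a lipoprotein receptor, was listed at 3 to 5 in every sample and was not tested.

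The enzymes that make serine from a glycolytic intermediate were lower with DZNep at the first and second step. PHGDH, which catalyses the first and committed step (chromosome 1, 119711934 to 119744215), had 469 and 359 in control, 176 and 139 with DZNep, and 300 and 314 with shEZH2. The DZNep samples lay below all others, and PHGDH was 2.75-fold lower (log2 fold change -1.46, standard error 0.25, adjusted p = 0.0029, limma). With shEZH2 the log2 fold change was -0.47 (standard error 0.25, adjusted p = 0.26, limma). PSAT1, the aminotransferase of the second step, changed by -0.61 with DZNep (standard error 0.16, adjusted p = 0.018, limma) and had a log2 fold change of 0.02 with shEZH2 (standard error 0.16, adjusted p = 0.94, limma). PSPH, the phosphatase of the last step, was near the filter, with values of 8 to 12, and had log2 fold changes of -0.08 and 0.26, neither past the threshold.

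In the folate cycle, which takes 1-carbon units from serine, 3 of 6 members fell with DZNep and none rose, where 20.4% and 22.4% of all tested genes did so. With shEZH2 none was called, where 3.91% of all tested genes rose and 4.53% fell. ALDH1L2, which oxidizes 10-formyltetrahydrofolate in mitochondria and yields NADPH (chromosome 12, 105019790 to 105084458), had 20 and 35 in control, 4 and 6 with DZNep, and 16 and 15 with shEZH2. It was 4.87-fold lower with DZNep (log2 fold change -2.28, standard error 0.25, adjusted p = 0.00045, limma), and its log2 fold change with shEZH2 was -0.78 (adjusted p = 0.087, limma). MTHFD2, the mitochondrial dehydrogenase and cyclohydrolase of the cycle (chromosome 2, 74198615 to 74217565), had 190 and 240 in control, 80 and 129 with DZNep, and 166 and 170 with shEZH2. It fell by 1.14 on the log2 scale with DZNep (standard error 0.19, adjusted p = 0.0025, limma), and its shEZH2 change was -0.39 (adjusted p = 0.22, limma).

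The other folate enzymes had smaller log2 fold changes. MTHFD1, the trifunctional enzyme of the cytosol, fell by 0.48 on the log2 scale with DZNep (standard error 0.15, adjusted p = 0.035, limma). SHMT2 and SHMT1, which split serine into glycine and a 1-carbon unit in mitochondria and cytosol, had DZNep log2 fold changes of 0.25 and -0.20, and MTHFD1L, which releases formate in mitochondria, had -0.17. None of these 3 passed the threshold (adjusted p = 0.41, 0.46 and 0.43, limma), and each had a standard error between 0.16 and 0.23.

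PCK2 showed the largest decrease of the 37 members with DZNep. PCK2, the mitochondrial phosphoenolpyruvate carboxykinase that links the TCA cycle to serine and glycerol synthesis (chromosome 14, 24094171 to 24104125), had 117 and 85 in control, 15 and 18 with DZNep, and 58 and 61 with shEZH2. The 3 groups did not overlap. It was 6.07-fold lower with DZNep (log2 fold change -2.60, standard error 0.22, adjusted p = 0.00018, limma). With shEZH2 its log2 fold change of -0.78 did not pass the threshold (adjusted p = 0.066, limma). In the direct comparison it was 3.52-fold higher with shEZH2 than with DZNep (log2 difference 1.82, standard error 0.22, adjusted p = 0.0054, limma). ASNS, asparagine synthetase and a classical ATF4 target (chromosome 7, 97851677 to 97928441), had 68 and 72 in control, 29 and 31 with DZNep, and 71 and 83 with shEZH2. Control and shEZH2 samples overlapped and both DZNep samples lay below them. ASNS was 2.40-fold lower with DZNep (log2 fold change -1.27, standard error 0.18, adjusted p = 0.0012, limma), and its log2 fold change with shEZH2 was 0.08 (standard error 0.18, adjusted p = 0.79, limma).

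CBS, which condenses serine and homocysteine in the transsulfuration pathway, fell by 0.86 on the log2 scale with DZNep (standard error 0.19, adjusted p = 0.0076, limma). GRCh38 holds a near-identical copy of it, CBSL, so its reads may have been divided between them. CTH, the next enzyme of that pathway, had values of 8 to 11, just inside the filter, and no call. Of the proline and alanine enzymes, PYCR1, ALDH18A1 and GPT2 had DZNep log2 fold changes of -0.14, 0.26 and 0.16 and none was called. With shEZH2 none of the 7 enzymes in this group passed the test, and PYCR1 had a log2 fold change of -0.61 (adjusted p = 0.15, limma).

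The amino acid transporters differed among themselves. SLC3A2 (CD98, chromosome 11, 62856109 to 62888860), the heavy chain that carries several light chain exchangers to the membrane, had 193 and 162 in control, 575 and 504 with DZNep, and 366 and 390 with shEZH2. It was 2.89-fold higher with DZNep (log2 fold change 1.53, standard error 0.21, adjusted p = 0.0012, limma) and 2.06-fold higher with shEZH2 (log2 fold change 1.04, standard error 0.21, adjusted p = 0.028, limma). SLC7A5 (LAT1), its light chain for leucine and other large neutral amino acids, rose by 0.91 on the log2 scale with DZNep (standard error 0.21, adjusted p = 0.011, limma) and had a log2 fold change of 0.37 with shEZH2 (adjusted p = 0.29, limma). SLC1A4 (ASCT1), which carries serine, alanine and cysteine (chromosome 2, 64988479 to 65023865), had 20 and 20 in control, 5 and 5 with DZNep, and 10 and 10 with shEZH2. It was lower with both, by 3.66-fold with DZNep (standard error 0.20 on the log2 scale, adjusted p = 0.00038, limma) and by 1.97-fold with shEZH2 (adjusted p = 0.026, limma), and low whole-number values limit the precision of these ratios. SLC1A5, SLC38A1 and SLC38A2, carriers of glutamine and small neutral amino acids, and SLC7A1, a carrier of arginine and lysine, had DZNep log2 fold changes of 0.24, 0.23, -0.67 and 0.58, none past the threshold (adjusted p = 0.39, 0.46, 0.063 and 0.054, limma). SLC6A9, a glycine transporter, had no row in the table.

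With silencing of EZH2, 5 of the 37 members were higher (13.5%), where 3.91% of all tested genes were higher, and 1 was lower (2.7%), where 4.53% of all tested genes were lower. The higher members were STC2, PPP1R15A, TRIB3, SLC3A2 and ATF4, and the lower one was SLC1A4. At over 2-fold, STC2, PPP1R15A, TRIB3 and SLC3A2 remained, 4 members where 2.02% of all tested genes were higher, and no member was lower, where 2.73% of all tested genes were. The median log2 fold change was 0.16 over the members and -0.01 over all tested genes. By the thresholds of the methods, 4 members were higher and 0 lower, where 2.27% and 3.03% of all tested genes were. The paper applied these thresholds with edgeR and reported more changed genes with silencing than with DZNep. The limma fit on scaled values gave the reverse order, so its calls do not reproduce those of the paper. Both shEZH2 samples lay above both control samples for 17 members and below them for 10, where 33.5% and 31.6% of all tested genes did so. The shEZH2 and DZNep contrasts use the same control samples, so an error in those samples moves both. Where both shEZH2 samples were averaged into 1, STC2 alone was called against control, where 0.103% of all tested genes were higher. With either shEZH2 sample left out, 1 member was higher and 0 were lower, where at most 0.0931% and 0.29% of all tested genes were. Without control replicate 2, 2 members were higher and 2 lower, where 1.41% and 3% of all tested genes were, and without control replicate 1, 5 were higher and 3 lower, where 7.36% and 5.98% were. With the values as deposited, 7 members were higher and 1 lower, where 8.4% and 4.32% of all tested genes were.

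**Figure D3:**
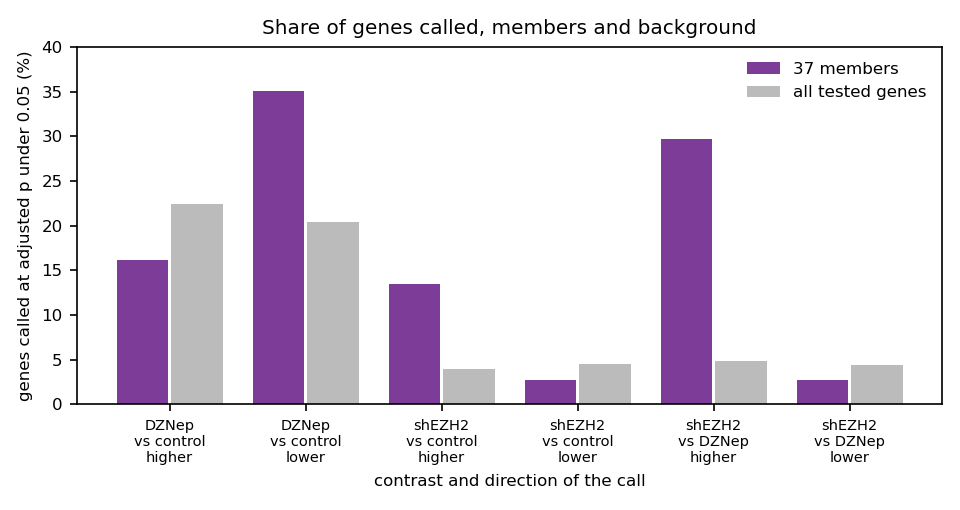
Percentage of genes called at an adjusted p under 0.05 (y axis) in each contrast and direction, for the 37 tested members and for all 9671 tested genes. The members stand at 35.1% against 20.4% for lower with DZNep and at 29.7% against 4.88% for higher with shEZH2 than with DZNep. These contrasts share the DZNep samples and most of the members called, so they are not separate results. No test was made on these shares, and the members were chosen with earlier results of these data known.

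The direct comparison asks whether the 2 ways of lowering EZH2 gave the same levels. Of the 37 members, 11 were higher with shEZH2 than with DZNep (29.7%), where 4.88% of all tested genes were higher, and 1 was lower (2.7%), where 4.42% were lower. The higher members were PCK2, ALDH1L2, ASNS, TRIB3, DDIT3, PHGDH, SLC1A4, JDP2, CBS, MTHFD2 and PSAT1. All of these but TRIB3 were also called lower with DZNep against control. Both contrasts use the same DZNep samples, so this share largely repeats the share of members lower with DZNep. ALDH1L2 was 2.83-fold higher with shEZH2 (adjusted p = 0.014, limma) and ASNS 2.55-fold higher (adjusted p = 0.0069, limma). At over 2-fold, PCK2, ALDH1L2, ASNS, TRIB3 and DDIT3 remained, 5 members where 3.04% of all tested genes were higher, and no member was lower, where 2% were. On the log2 scale PHGDH differed by 0.99 (standard error 0.25, adjusted p = 0.048, limma), MTHFD2 by 0.74 (standard error 0.19, adjusted p = 0.048, limma) and PSAT1 by 0.63 (standard error 0.16, adjusted p = 0.048, limma), all close to the threshold. By the thresholds of the methods, 6 members were higher and 0 lower, where 3.42% and 2.1% of all tested genes were. Both shEZH2 samples lay above both DZNep samples for 20 members and below them for 6, where 29.5% and 31.3% of all tested genes did so. The median log2 difference was 0.32 over the members and 0.00 over all tested genes. Where both shEZH2 samples were averaged into 1, nearly all of the member calls were lost, as were most of those over all tested genes. The higher members numbered 2 without shEZH2 replicate 1, 1 without shEZH2 replicate 2 and 6 without DZNep replicate 2, where 0.527%, 0.414% and 4.6% of all tested genes were higher. STC2 was not called without DZNep replicate 1 or either shEZH2 sample.

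**Figure D4:**
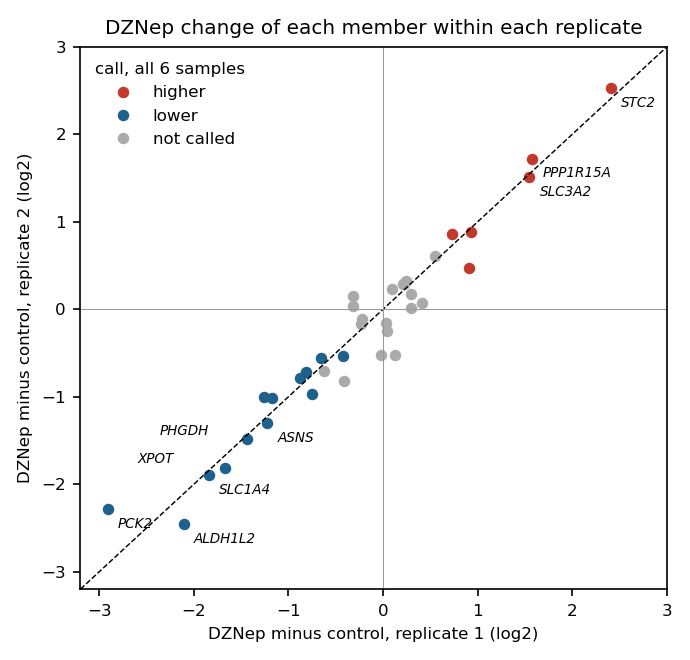
DZNep minus control (log2, after TMM scaling) in replicate 1 (x axis) and replicate 2 (y axis), with 1 point for each of the 37 tested members, coloured by the call from all 6 samples; the dashed line marks equal change. The 6 higher and 13 lower members lie to the upper right and lower left of the origin, which calls made on the mean of both replicates largely fix in advance. PCK2 lies farthest to the left, at -2.91 in replicate 1 and -2.29 in replicate 2.

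Other genes around the pathway were counted from 8 lists. Of all tested genes, 22.4% rose and 20.4% fell with DZNep, and 3.91% rose and 4.53% fell with shEZH2, so that in lists of this size a few calls with DZNep and none or 1 with shEZH2 are near the background. Of the 15 genes for the eIF2 kinases, eIF2 and its exchange factor eIF2B, all were tested, and 3 rose and 4 fell with DZNep. Subunits of eIF2B moved in opposite directions, with log2 fold changes of 1.43 for EIF2B2 (adjusted p = 0.0023, limma) and -0.99 for EIF2B3 (adjusted p = 0.0029, limma). EIF2B1 and EIF2B5 also rose, and the eIF2 kinase genes EIF2AK3 (PERK) and EIF2AK4 (GCN2) fell. EIF2S3, the gamma subunit of eIF2, fell by 1.02 on the log2 scale with DZNep (adjusted p = 0.0032, limma) and by 0.77 with shEZH2 (adjusted p = 0.041, limma), the only call of that list with shEZH2. Of 18 tested genes for the IRE1 and ATF6 arms of the ER stress response, 3 rose and 5 fell with DZNep. Among them, the degradation factor EDEM1 changed by -1.41 (adjusted p = 0.0022, limma), the chaperone HSP90B1 by -1.26 (adjusted p = 0.01, limma) and the transcription factor XBP1 by -0.97 (adjusted p = 0.0035, limma). ATF6 and SEL1L also fell, and SDF2L1 and CALR rose. ERN1, which encodes the sensor IRE1 and is named because it was the only call of that list with shEZH2, read 7 and 8 in control, 29 and 27 with DZNep, and 21 and 18 with shEZH2, with log2 fold changes of 1.71 (adjusted p = 0.00062, limma) and 1.23 (adjusted p = 0.017, limma).

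Of 9 tested further stress genes linked to ATF4, 4 rose and 1 fell with DZNep and none was called with shEZH2. The uridine phosphorylase UPP1 rose by 1.09 on the log2 scale (adjusted p = 0.0079, limma), the autophagy receptor SQSTM1 by 0.88 (adjusted p = 0.013, limma) and MAP1LC3B, a protein of autophagosome membranes, by 0.67 (adjusted p = 0.012, limma). TNFRSF10B, a death receptor, also rose, and the ER oxidase ERO1A fell. Of 13 other amino acid transporters tested, 2 rose and 3 fell with DZNep, and 1 rose and 3 fell with shEZH2. SLC38A9 fell and SLC25A22 rose with both treatments. SLC38A10 fell from 57 and 63 in control to 7 and 8 with DZNep and 22 and 18 with shEZH2, with log2 fold changes of -2.91 (adjusted p = 5.9e-05, limma) and -1.59 (adjusted p = 0.0063, limma). SLC36A4 had -1.82 (adjusted p = 0.00088, limma) and -1.27 (adjusted p = 0.021, limma), and SLC7A6, another light chain partner of SLC3A2, rose by 1.03 with DZNep (adjusted p = 0.0068, limma).

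Of 16 other folate and glycine genes tested, 3 rose and 3 fell with DZNep. The purine synthesis genes PAICS and GART changed by -0.88 (adjusted p = 0.015, limma) and -0.53 (adjusted p = 0.024, limma) with DZNep. MTFMT also fell, and MTHFS and MTHFD2L were among those that rose. Of 13 other amino acid enzymes tested, 1 rose and 3 fell with DZNep. Argininosuccinate synthase ASS1 fell by 1.19 on the log2 scale (adjusted p = 0.0024, limma) and ornithine decarboxylase ODC1 rose by 0.96 (adjusted p = 0.0024, limma). ARG2 and SRR also fell with DZNep. With shEZH2 the serine racemase SRR, named because it was the only call, had a log2 fold change of -1.14 (adjusted p = 0.017, limma). Of 21 tested genes for amino acid sensing by mTORC1, 3 rose and 2 fell with DZNep, led by FLCN at 1.08 (adjusted p = 0.0055, limma), with LAMTOR1 at 0.65 (adjusted p = 0.049, limma) and RRAGD at -0.63 (adjusted p = 0.03, limma), and none was called with shEZH2. RRAGC also rose and SESN3 fell with DZNep. Of 10 tested genes for stress relay from mitochondria, 1 rose and 3 fell with DZNep and 2 fell with shEZH2. The chaperone HSPD1 fell by 1.48 on the log2 scale with DZNep (adjusted p = 0.0018, limma), SPG7 rose by 0.75 (adjusted p = 0.022, limma) and AFG3L2 had log2 fold changes of -0.54 (adjusted p = 0.021, limma) and -0.60 (adjusted p = 0.049, limma). OMA1, the protease of the relay, read 11 and 14 in control, 3 and 4 with DZNep, and 7 and 7 with shEZH2. It fell with both treatments, with log2 fold changes of -1.65 (adjusted p = 6e-04, limma) and -0.79 (adjusted p = 0.047, limma). Such low whole-number values limit the precision of these ratios.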

How the data were processed

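RNA-Seq of OVCAR8 was analysed in 6 samples, grouped by the conditions in the sample titles. The authors depleted ribosomal RNA, prepared stranded libraries and used fastp for trimming, STAR for alignment (GRCh38) and RSEM for gene levels. The labels give the doses as mM and mg/mL, and the methods as μM and μg/mL, which were used. The deposited values are a score per gene, scaled by the authors to a common total and rounded, although the table is named a count matrix. Transcript abundances from RSEM, rounded, would have this form, which is not stated. As they are not counts, edgeR, planned for counts, was replaced by limma 3.58.1 (R 4.3.3, lmFit and eBayes with trend) on log2(value + 1) after TMM scaling without weights (factors 0.92 to 1.12, trimming 30% of log ratios and 5% of mean values). A gene was tested (two-sided) if 2 or more samples reached 10. Members and lists were chosen with earlier results of these data known. Members over 2-fold and called are given per sample, the others by log2 fold change, and from each list at most 3 called genes per contrast with a mean of at least 20; other called list genes were named after their values were seen. The values of 1 folate gene are not reported here. The fit was tested on simulated data whose noise was independent and of equal spread in all samples. These data differ in both respects, so that test does not cover them. Gene positions and promoter windows came from RefSeq (GRCh38.p14). Alternatives were other scalings, pseudocounts, filters, variance models, sample sets, the replicate block and the thresholds of the methods, and a correction for transcript length and GC content was added after the data had been seen. Figures were drawn with matplotlib 3.10.9.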

Additional observations from a re-analysis of the deposited data

How the results depend on the processing

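No called member changed sign under any of the 18 alternatives. With DZNep, 9 of the 13 lower members (ALDH1L2, ASNS, CBS, JDP2, MTHFD2, PCK2, PHGDH, SLC1A4 and XPOT) and 5 of the 6 higher members, all but CEBPB, passed the threshold under all 18. With shEZH2 only STC2 did so against control, and only PCK2 against DZNep. When each of the 6 samples was left out in turn, the counts of called members and the shares of all tested genes called both changed. In proportion they changed most in the shEZH2 contrasts, and a group left with 1 sample was assumed to vary like the others. The lowest shEZH2 counts came without either shEZH2 replicate, where few of all tested genes were called. Few were also called where both shEZH2 samples were averaged into 1. At a log2 fold change above 1 with unadjusted P under 0.05, the thresholds of the methods, DZNep gave 8 lower and 3 higher members. Of all tested genes, 11.8% and 10.5% were then called. Against control, shEZH2 gave 0 lower and 4 higher members, where 3.03% and 2.27% of all tested genes were called. Against DZNep it gave 0 lower and 6 higher, where 2.1% and 3.42% were called. With every gene above 0 tested, 7 members were higher with shEZH2 than with DZNep, where 2.75% of all tested genes were. With limma without the trend there were also 7, where 4.84% of all tested genes were. The replicate numbers were shared between groups, and deviations of same-numbered replicates from the group means had a correlation of 0.79 between control and DZNep, of -0.02 for control with shEZH2 and of -0.04 for DZNep with shEZH2, so the numbers do not pair all samples. The main fit did not use the replicate number. With it as a block, DZNep gave 15 lower and 7 higher members, where 27.8% and 28.2% of all tested genes were called. The same block gave 6 lower and 9 higher members for shEZH2 against control, where 14.1% and 14.5% of all tested genes were called. Against DZNep, shEZH2 then gave 3 lower and 16 higher members, where 12.6% and 14% were called. Transcript length and GC content were known for 37 of 37 members and 93.3% of tested genes. Once they were corrected for, DZNep gave 20 lower and 7 higher members, where 29.4% and 29.3% of all tested genes were called. Against control, shEZH2 gave 10 lower and 8 higher, where 16.7% and 13.9% were called. Against DZNep it gave 4 lower and 18 higher, where 16.1% and 17.4% were called. With that correction and the replicate block, the counts were 21, 9, 10, 10, 4 and 19 in the same order. The shares of all tested genes called were then 32.2%, 32.1%, 21.1%, 18.4%, 20.1% and 21.7%. The cause of these differences was not tested. Rounding of the deposited values limits the ratios of SLC1A4, ALDH1L2 and other low genes.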

Other observations

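Control and DZNep libraries shared a difference between their replicates that covered all tested genes, with a correlation of 0.79 between their deviations from the group means, and the members followed it. Over the 37 tested members, the difference of replicate 1 from replicate 2 on the log2 scale had a correlation of 0.742 between control and DZNep cells and of -0.137 between control and shEZH2 cells, as a description across genes that share a library. XPOT was lower in replicate 1 by 0.68 in control and 0.54 in DZNep cells, SLC38A2 by 0.60 and 0.51, and SLC38A1 by 0.59 and 0.46. PHGDH was higher in replicate 1 by 0.55 and 0.59, SHMT2 by 0.54 and 0.46, and EIF4EBP1 by 0.61 and 0.52. In shEZH2 cells the replicate difference of each of these 6 genes lay between -0.12 and 0.13. The labels do not say what the replicate numbers stand for, and the cause was not tested.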
